A study of Drosophila melanogaster with 3 samples.

Results

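The repeatable promoter peaks outside the IDR list are 539 of the 30000 peaks called on the pooled replicates of a ChIP-seq experiment on the forkhead factor fd64A. IDR (irreproducible discovery rate) rests on the agreement of peak ranks between replicates, and its list here holds 2919 peaks, none of which is among the 539. In these lists it amounts to a cut on pooled signal. The weakest IDR peak had a signal of 190.04, and the strongest of the 539 had 189.97. Every contrast with IDR promoter peaks below is therefore one of weaker against stronger peaks. Each of the 539 overlaps no IDR peak, has its summit within 50 bp of a summit in every one of the 3 replicate lists, and lies within 500 bp of an annotated transcription start site (TSS). The summit positions, their offsets between lists, the distance to the TSS and, through the IDR list, the signal chose these peaks. Those values are therefore given as a description with no test.

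ChIP-seq was carried out on whole Drosophila melanogaster embryos of 8 to 14 hours, males and females pooled, from a transgenic line with green fluorescent protein fused to the C terminus of fd64A. The annotation lists the gene as FoxL1. The 3 biological replicates form 1 group, each has 1 technical replicate, all come from 1 donor strain, and there is no second genotype or treatment. One free-text label names an input control for each sample, although the labels of assay and antibody name an immunoprecipitation. Whole embryos mix many cell types, and no label gives the level of the tagged protein. All lists were called against the same input alignment, and the pooled list holds the same reads as the replicates. No source used here gives numbers of reads, so depth is unknown.

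Forkhead proteins bind DNA through a winged-helix domain that recognises variants of the word GTAAACA. fd64A was named as one of several forkhead domain genes of the fly, and its mammalian relative FOXL1 acts in mesenchyme next to gut epithelium. A promoter holds core elements such as the TATA box and the initiator close to the TSS, and promoters of widely expressed fly genes often carry the DRE word TATCGATA, bound by DREF and BEAF-32.

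These windows show what the strongest such peaks with a forkhead word look like. They are the 3 repeatable promoter peaks with the highest pooled signal that hold GTAAACA within 50 bp of the summit, leaving out one arm and windows that touch an annotated untranslated region. Each is the plus strand of dm6, 50 bp to each side of the summit, read from the NCBI release 6 genome, and capitals mark GTAAACA or its reverse complement.
CG32270: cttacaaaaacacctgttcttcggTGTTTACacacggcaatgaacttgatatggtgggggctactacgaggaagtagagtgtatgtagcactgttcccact
CG9663: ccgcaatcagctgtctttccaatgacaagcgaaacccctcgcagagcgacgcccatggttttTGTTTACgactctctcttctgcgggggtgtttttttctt
lncRNA:CR45662: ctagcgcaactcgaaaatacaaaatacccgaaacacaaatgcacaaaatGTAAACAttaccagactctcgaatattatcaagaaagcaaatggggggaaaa
The window named for CG32270 is chr3L:3209050-3209150, whose summit lies 115 bp upstream of the nearest TSS and in an intron of another gene, gry, with the word's centre 23 bp from the summit. Its pooled signal was 180 (rank 3182), and its replicate signals were 69.2, 47.9 and 55.2. The window of CG9663, chr2L:3303215-3303315, lies outside genes 135 bp upstream of the TSS, with a pooled signal of 177 and replicate signals of 61.0, 69.4 and 45.7. The window of lncRNA:CR45662, chr3R:24282982-24283082, lies in a non-coding exon 336 bp downstream of the TSS, and its word sits 2 bp from the summit. Its pooled signal was 176, with 64.0, 33.5 and 79.1 in replicates 1, 2 and 3. The replicate signals thus differed by more than 2-fold at this last peak and by less at the other 2. Depth is unknown, so the signal scales of the replicates may differ.

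The next set shows the DRE word, with TATCGATA in capitals, in the 2 strongest peaks that hold it once the same arm and windows touching an untranslated region are left out. Of the 6 peaks with the word, 3 others were stronger than the second one shown.
dsd: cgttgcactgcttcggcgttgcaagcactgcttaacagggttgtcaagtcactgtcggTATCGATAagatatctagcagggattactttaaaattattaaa
CG14971: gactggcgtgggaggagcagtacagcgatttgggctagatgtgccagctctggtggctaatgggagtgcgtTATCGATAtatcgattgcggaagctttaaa
The window named for dsd is chr3R:27607404-27607504, 58 bp upstream of the TSS, with a pooled signal of 181 and replicate signals of 85.2, 41.7 and 58.2. The window of CG14971, chr3L:3471343-3471443, lies 84 bp upstream of the TSS. Its pooled signal was 115, and its replicate signals were 24.3, 36.7 and 41.1.

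Another set, chosen after the values were seen, shows the word ATTCAGA, the second of the search over all 7-base words described further on. Capitals mark it or its reverse complement.
cno: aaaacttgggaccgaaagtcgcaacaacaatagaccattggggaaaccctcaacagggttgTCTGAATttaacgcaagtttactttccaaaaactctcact
CG9760: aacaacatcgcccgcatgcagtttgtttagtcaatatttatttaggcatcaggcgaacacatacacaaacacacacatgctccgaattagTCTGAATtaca
The window of cno, chr3R:5198471-5198571, lies in an intron of this adherens junction gene, 223 bp upstream of the nearest TSS. Its pooled signal was 173, with 48.2, 51.9 and 59.5 in the replicates. The window of CG9760, chr3L:12163250-12163350, is intronic and 435 bp downstream of the TSS, with a pooled signal of 125.

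Of the 6878 promoter peaks outside the IDR list, 7.84% were repeatable in this sense (95% Wilson interval 7.22 to 8.50). Taken singly, replicates 1, 2 and 3 had a summit within 50 bp at 3340, 2853 and 2826 of the 6878. Whether more peaks matched in all 3 replicates than independent matching at these rates would give was not tested. Repeatable therefore names the summit match and no more. The other promoter peaks outside the IDR list number 6339 and are called non-repeatable below. Away from promoters, 1196 of 19600 peaks outside the IDR list (6.10%) met the same summit rule. Within the IDR list, 699 of 1230 promoter peaks (56.8%) met it, so a summit match within 50 bp was not general there either. The repeatable share fell with pooled rank. Among promoter peaks it was 32.3% at ranks 2920 to 4000, 22.5% at ranks 4001 to 6000, 16.4% at ranks 6001 to 8000 and 8.48% at ranks 8001 to 10000. It was 3.87% at ranks 10001 to 15000, and 3 of 1137 promoter peaks met the rule at ranks 15001 to 20000. In the first 5 of these bins the share was lower at promoters than elsewhere, where it was 41.3%, 31.4%, 19.8%, 12.3% and 4.97%. Promoter peaks had the higher share over all ranks and the lower share at like rank.

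**Figure D1:**
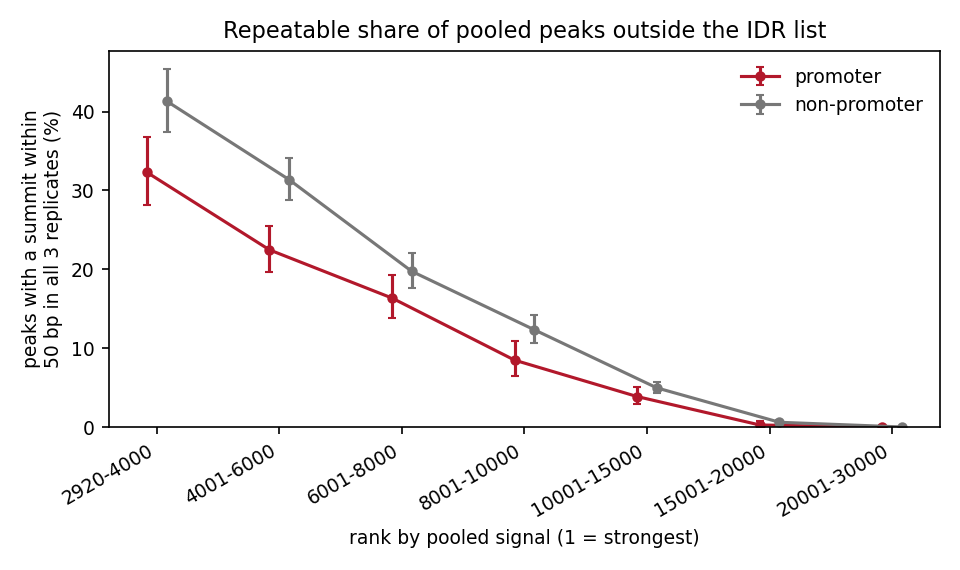
Share of peaks outside the IDR list with a summit within 50 bp in all 3 replicates (%), by rank of pooled signal, for promoter and non-promoter peaks; bars are 95% Wilson intervals. The promoter share was 32.3% in the strongest bin and 3.87% at ranks 10001 to 15000, below the non-promoter share in both.

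The pooled signal, the authors' own peak value, was 74.9 to 190.0 with a median of 134, against 190.04 for the weakest IDR peak. Their pooled ranks ran from 2924 to 16851 with a median of 5391. None had a deposited pooled q-value under 0.05, and the lowest was 0.0535. In the single replicates 123, 62 and 1 of the 539 had q under 0.05 in replicates 1, 2 and 3, where 16.5%, 10.1% and 5.33% of all listed peaks did. The replicates did not rank these peaks alike. The median rank was 7976, 6954 and 9300 in replicates 1, 2 and 3, and the ranks spanned 1979 to 30000, 1134 to 29950 and 1367 to 29875. A rank over 20000 was held by 73, 51 and 77 peaks. Counting the leading 2919 peaks of each replicate, 425 peaks were in none of these, 102 in 1, 12 in 2 and 0 in all 3. A subset of 140 peaks ranked in the leading 10000 of every replicate.

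**Figure D2:**
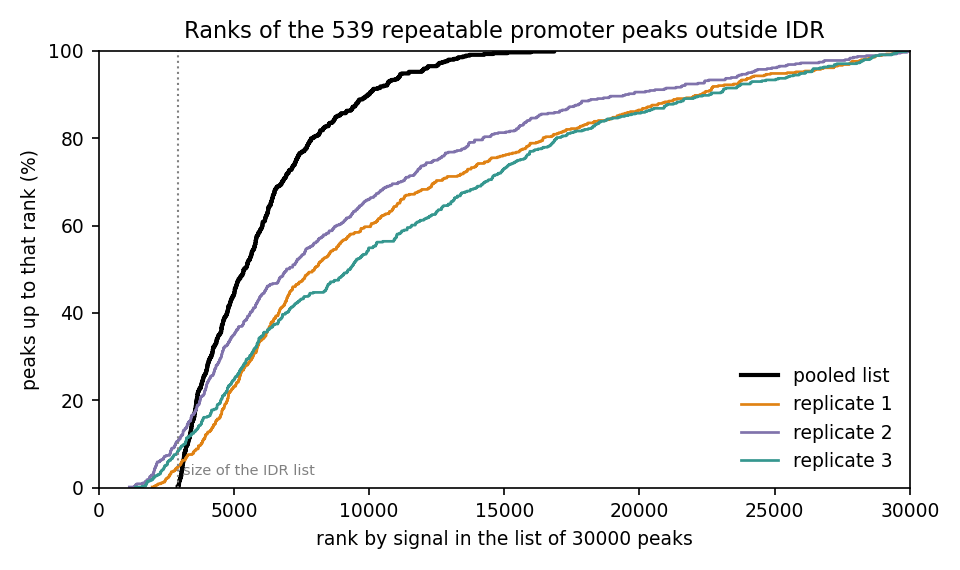
Cumulative share (%) of the 539 repeatable promoter peaks outside the IDR list by rank of signal, in the pooled list and in each replicate, with the size of the IDR list as a dotted line. The pooled ranks begin at 2924 and end at 16851, while the ranks in each replicate reach almost to the end of the list of 30000.

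The largest of the 3 summit offsets had a median of 33 bp, and the median absolute offset was 10, 20 and 8 bp in replicates 1, 2 and 3. The limit of 50 bp fell within a continuum, since 85 peaks had a largest offset of 46 to 50 bp and 74 promoter peaks one of 51 to 55 bp. The peak at eEF1beta was just inside, at 50 bp, with a signal of 188, and that at snu just outside, at 51 bp, with a signal of 170. At the TSS limit, CG15283 was inside at 498 bp and Scsalpha1 outside at 502 bp, with signals of 126 and 123. No replicate summit was shared by 2 of the peaks. The nearest IDR summit was 513 to 302754 bp away with a median of 9222 bp. It was within 2000 bp for 80 peaks (14.8%) and over 10000 bp away for 257 (47.7%).

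The forkhead word GTAAACA was more frequent at the repeatable promoter peaks than at non-repeatable ones, and its share did not differ past the threshold from that of IDR promoter peaks. It lay within 50 bp of the summit, on either strand, in 42 of 539 repeatable peaks, or 7.79% (95% Wilson interval 5.82 to 10.4). At non-repeatable promoter peaks it lay in 198 of 6339, or 3.12%. The ratio was 2.49, and the difference passed a two-sided Fisher's exact test (Benjamini-Hochberg adjusted p = 1.65e-05 over 64 motif tests). Every p-value that follows comes from this test. At windows 500 bp to each side of the same summits the share was 2.50%, for a ratio of 3.11 (exact adjusted p = 5.57e-05). Windows of the same length centred on all 23581 annotated TSSs held the word in 3.08%. Fisher's test treats windows as independent, and the intervals cover counting error only.

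Without replicate 1 in the rule, which leaves 1109 peaks, the ratio was 1.47 over non-repeatable peaks (exact adjusted p = 0.0450) and 2.00 over flanks (exact adjusted p = 0.00358). At each replicate's own nearest summits, the word lay in 7.24%, 6.86% and 6.31% of the repeatable peaks, a mean of 6.80% ± 0.467 (SD, n = 3). At non-repeatable promoter peaks with a summit of that replicate within 50 bp, the shares were 3.75%, 3.41% and 2.45%, a mean of 3.20% ± 0.675 (SD, n = 3). The rule places these summits within 50 bp of the pooled one, so the values of the repeatable peaks re-read nearly the same windows. Their spread is a description, here and below, and not independent replicate support. By the number of replicates with a summit within 50 bp, the pooled share was 2.13% with 0, 3.37% with 1, 3.27% with 2 and 7.79% with 3.

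The repeatable and non-repeatable peaks differ in pooled signal, and among the repeatable peaks the word share fell with signal. With these cut by signal into 4 groups of like size, GTAAACA lay in 11.9%, 8.15%, 5.93% and 5.22% from the strongest group to the weakest. The intervals of neighbouring groups overlap. The IDR promoter peaks, all stronger, changed little when cut in the same way, with 7.47%, 7.14%, 6.84% and 6.19%. With both classes held to pooled ranks up to 6000, the shares were 9.09% of 319 repeatable and 4.21% of non-repeatable promoter peaks, and the ratio was 2.16 (exact adjusted p = 0.0372). This limit does not match signal within the range. Repeatable peaks were 32.3% of promoter peaks outside the IDR list at ranks 2920 to 4000 and 22.5% at ranks 4001 to 6000. GC content differed little between the 2 classes, at 46.3% ± 8.93 for repeatable and 46.8% ± 9.09 for non-repeatable peaks (SD over windows). The flanks had a lower GC content, 41.4%.

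Against IDR promoter peaks, where 85 of 1230 (6.91%) held the word, the ratio was 1.13 and did not pass (exact adjusted p = 0.80). At the replicates' own summits the order was the opposite, with 6.80% ± 0.467 at repeatable and 7.23% ± 0.387 at IDR promoter peaks (SD, n = 3). The intervals, 5.82% to 10.4% for the repeatable peaks and 5.62% to 8.47% for the IDR promoter peaks, allow a difference in either direction. Repeatable peaks away from promoters held the word in 6.44%, which did not pass either (exact adjusted p = 0.64).

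**Figure D3:**
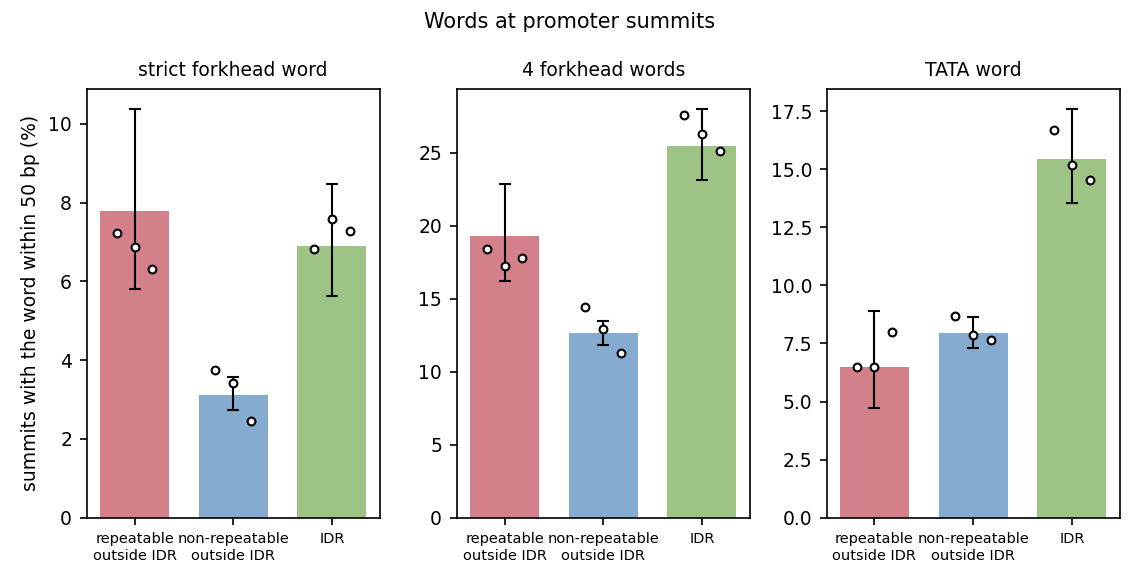
Share of summits (%) with GTAAACA (the strict forkhead word), any of the 4 forkhead words or the TATA word within 50 bp, for repeatable promoter peaks outside the IDR list, non-repeatable ones and IDR promoter peaks; bars are shares at pooled summits with 95% Wilson intervals and points are the 3 replicates' own summits. The repeatable peaks have 7.79% for the strict word against 3.12% and 6.91%, and 6.49% for TATA against 7.97% and 15.4%.

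The 42 peaks held 45 copies of GTAAACA, and 3 peaks held more than 1. The word's centre lay a median of 22 bp from the summit, and 18 of the 45 were within 20 bp. Only words within 50 bp of the summit were counted, so these distances alone do not show centring on it. In bins of 20 bp, the repeatable peaks had 2.60 words per 100 summits centred 20 bp to the right of the summit and 0.928 at the summit itself, where the IDR promoter peaks had 2.11. A further bin of 2.04 lay 80 bp to the left. Each of these bins of the repeatable peaks holds 14 words or fewer. The 42 peaks with the word had a median pooled signal of 150, against 133 for the 497 without it. Their median ranks in replicates 1, 2 and 3 were 5822.5, 7008 and 6582, against 8189, 6954 and 9374 without it. Replicate 2 thus did not rank them higher. Their GC content was 40.4% ± 6.48 against 46.8% ± 8.93 (SD over windows).

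**Figure D4:**
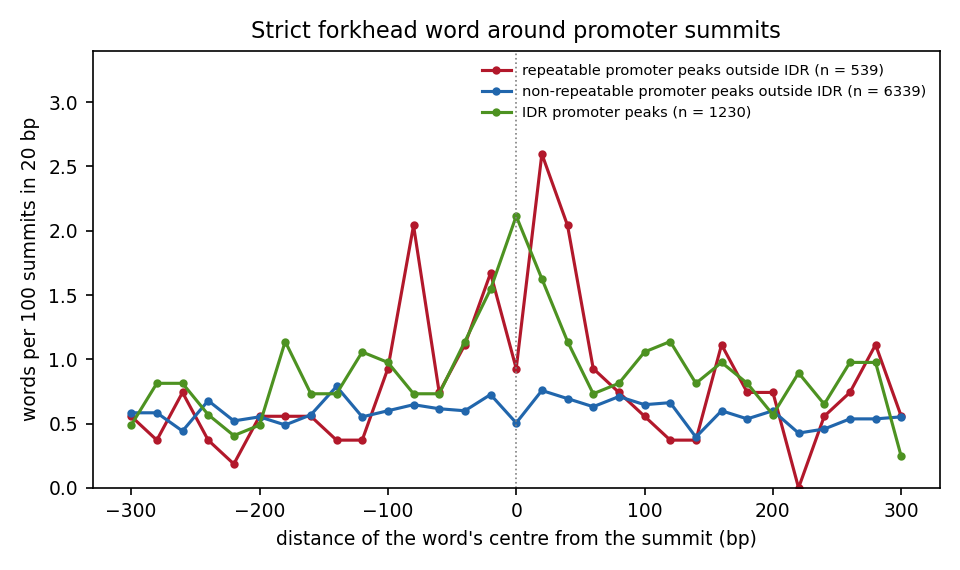
Copies of GTAAACA per 100 summits in bins of 20 bp, by distance from the summit (bp), for the 3 promoter classes. The repeatable peaks reach 2.60 at 20 bp, from 14 words, and the IDR promoter peaks reach 2.11 at the summit, while the non-repeatable peaks stay between 0.505 and 0.757 within 100 bp of the summit.

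With 3 further forms of the site, ATAAACA and ATAAATA and GTAAATA, the share at the repeatable peaks was above that of non-repeatable and below that of IDR promoter peaks, and both calls depended on the setting. One of the 4 words lay at 104 repeatable peaks (19.3%), at 12.6% of non-repeatable promoter peaks and at 25.4% of IDR promoter peaks. The ratio was 1.53 over non-repeatable peaks (exact adjusted p = 0.000426) and 0.758 over IDR promoter peaks (exact adjusted p = 0.0362). Against their own flanks, with 15.8%, it did not pass (exact adjusted p = 0.36). At replicate summits the shares were 17.8% ± 0.557 for repeatable, 12.9% ± 1.59 for non-repeatable and 26.3% ± 1.23 for IDR promoter peaks (SD, n = 3). The difference from non-repeatable peaks no longer passed at pooled ranks up to 6000 (ratio 1.41, exact adjusted p = 0.0927) or without replicate 1 (ratio 1.14, exact adjusted p = 0.23), nor with 25 bp tolerance or for summits downstream. The difference from IDR promoter peaks was lost in 8 of 17 alternatives. It did not pass at ranks up to 6000 (ratio 0.838, exact adjusted p = 0.40) or against the IDR promoter peaks below their median signal (ratio 0.892, exact adjusted p = 0.78), and for peaks in the leading 10000 of every replicate the ratio was 1.04. Nor did it pass with 25 bp tolerance, TSSs within 250 bp, protein-coding TSSs, windows of 25 bp or summits upstream alone. All TSS windows held one of the 4 words in 13.6%.

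A second set of forkhead words, ACAAACA and ACAAATA, with ATAAACA and ATAAATA, shares the last 2 words with the first. It lay at 18.9% of repeatable, 14.0% of non-repeatable and 25.9% of IDR promoter peaks. Both differences passed (exact adjusted p = 0.0240 and 0.0140), with ratios of 1.35 and 0.730. At pooled ranks up to 6000 neither did (exact adjusted p = 0.80 and 0.18). The difference from non-repeatable peaks was kept in 7 of 15 alternatives and that from IDR promoter peaks in 10 of 17. Without replicate 1 or without replicate 2, the first did not pass (exact adjusted p = 0.34 and 0.10). Against their own flanks, with 15.8%, the repeatable peaks did not differ past the threshold (exact adjusted p = 0.39). All TSS windows held these words in 14.7%.

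When all words of 7 bases were compared, each merged with its reverse complement, GTAAACA came first between repeatable and non-repeatable promoter peaks (exact adjusted p = 0.00421 over the words). One other word passed. ATTCAGA lay in 20 repeatable peaks (3.71%) and in 0.994% of non-repeatable ones (ratio 3.73, exact adjusted p = 0.0167). No word was lower at the repeatable peaks past the threshold, and 346 words had an unadjusted Fisher p under 0.05 in either direction. Thus 0.0244% of words were called higher. The rank of GTAAACA in this search depended on replicate 1. With that replicate left out of the rule it was 127, against 6 without replicate 2 and 1 without replicate 3, and at pooled ranks up to 6000 it was 13, with no word past the threshold.

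The TATA word TATAAA was less frequent at the repeatable peaks than at IDR promoter peaks. It lay in 35 repeatable peaks (6.49%, 95% interval 4.71 to 8.90) and in 190 IDR promoter peaks (15.4%), a ratio of 0.420 (exact adjusted p = 4.21e-06). At replicate summits the shares were 6.99% ± 0.857 for repeatable and 15.5% ± 1.09 for IDR promoter peaks (SD, n = 3). Non-repeatable promoter peaks had 7.97%, which did not differ past the threshold (exact adjusted p = 0.61), and the flanks 13.1% (ratio 0.496, exact adjusted p = 0.000550). All windows centred on a TSS held TATAAA in 15.0%.

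Pooled signal, base composition and the side of the TSS move with this difference. In the 4 signal groups from the strongest to the weakest, TATAAA lay at 22.1%, 14.6%, 11.7% and 13.4% of IDR promoter peaks. At repeatable peaks the shares were 8.89%, 5.19%, 5.93% and 5.97%. The intervals of the weakest IDR group and the strongest repeatable group, which adjoin in rank, overlap. Against the IDR promoter peaks below their median signal the ratio was 0.519 (exact adjusted p = 0.00832). The GC content was 46.3% ± 8.93 at repeatable and 40.03% ± 10.1 at IDR promoter peaks (SD over windows). The parts of signal and of base composition in the TATA result were not tested. With summits upstream of the TSS alone, TATAAA lay at 10.4% of repeatable and 18.4% of IDR promoter peaks (ratio 0.565, exact adjusted p = 0.0324). With summits at or downstream of the TSS, the shares were 3.36% and 10% (ratio 0.336, exact adjusted p = 0.00904). The difference from the flanks was not past the threshold for upstream summits (ratio 0.781, exact adjusted p = 0.73).

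The DRE word lay in 6 repeatable promoter peaks (1.11%) and in 1 of the 1196 repeatable peaks away from promoters, for a ratio of 13.3 (exact adjusted p = 0.0362). The class away from promoters was chosen by distance to the TSS, near which this word is known to lie, and the count of 6 is low. Among promoter classes it did not differ past the threshold, with 0.883% at non-repeatable and 1.95% at IDR promoter peaks. Windows centred on all TSSs held it in 3.76%. Apart from the DRE word, the forkhead words and TATAAA, no motif passed in any of the 4 comparisons, and 9 of 64 motif tests (14.1%) passed in all. The others were the BEAF-32 word CGATA outside ATCGAT, the GAGA word GAGAGA, the Motif 1 word GGTCACAC, the E-boxes CAGCTG and CACGTG, the Zelda word CAGGTA, the GATA words AGATAA and TGATAA, the ETS word CCGGAA, the initiator words TCAGTC and TCAGTT, the Motif 6 words GTATATTT and GTATTTTT, and the TCT words CTCTTTC and CTCTTTT and CTTTTTC. Their shares at the repeatable peaks ran from 0.742% for Motif 1 to 13.5% for CGATA. Over all TSS windows these 2 words lay in 3.897% and 17.4%, and the initiator words in 21.2%, against 11.5% of the repeatable peaks.

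The repeatable peaks sat further downstream than IDR promoter peaks. Their median summit position was 19 bp downstream of the TSS, against 65 bp upstream for IDR promoter peaks and 49 bp downstream for non-repeatable ones. Upstream of the nearest TSS lay 241 of 539 repeatable summits (44.7%) and 800 of 1230 IDR promoter summits (65.0%), a ratio of 0.687 (exact adjusted p = 1.47e-14 over 6 position tests). The replicates' own summits gave 46.01%, 45.1% and 44.0% at repeatable peaks and 66.0%, 64.1% and 65.1% at IDR promoter peaks. Against non-repeatable peaks, with 41.6% upstream, the difference did not pass (exact adjusted p = 0.35). The upstream share fell steadily with signal at IDR promoter peaks and not at repeatable ones, a description with no test. In the 4 signal groups from the strongest to the weakest it was 52.6%, 37.8%, 48.1% and 40.3% at repeatable peaks and 76.0%, 64.9%, 60.3% and 59.0% at IDR promoter peaks. The intervals of the strongest repeatable group (44.2 to 60.8) and the weakest IDR group (53.4 to 64.3), which adjoin in rank, overlap. The part of signal in the difference between the classes was not tested. Against the IDR promoter peaks below their median signal the ratio was 0.751 (exact adjusted p = 3.98e-06).

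**Figure D5:**
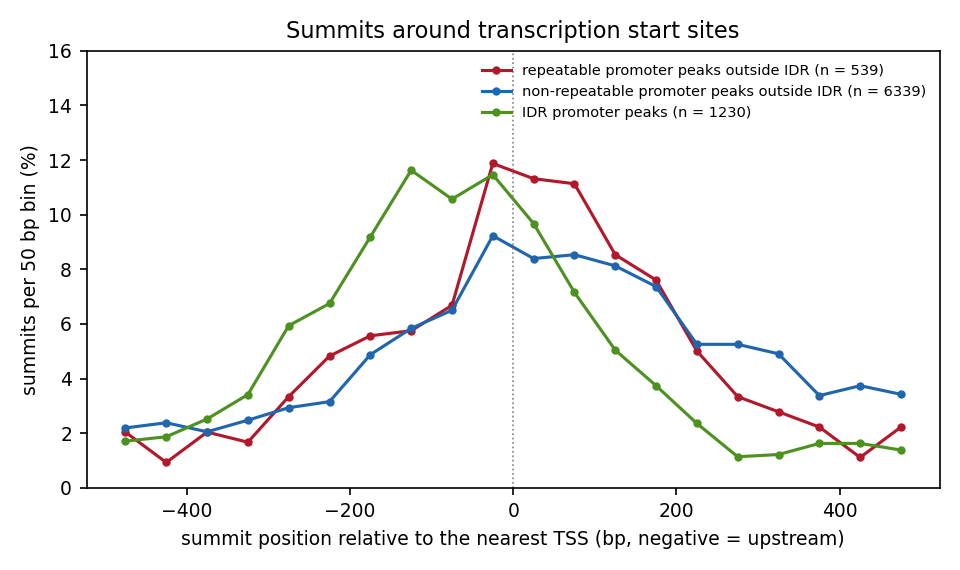
Share of summits (%) in bins of 50 bp by position relative to the nearest TSS (bp, negative upstream) for the 3 promoter classes. The repeatable peaks have 11.9%, 11.3% and 11.1% in the bins from 50 bp upstream to 100 bp downstream, where the IDR promoter peaks fall from 11.5% to 7.15%.

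The annotated features under the summits differed as well. This comparison was chosen after the values were seen, with p-values adjusted over 12 tests, and the adjustment does not cover that choice. The feature under a summit depends in part on its position relative to the TSS, so the comparison is not independent of the upstream share above. Coding exons held 56 repeatable summits (10.4%) and 13 IDR promoter summits (1.06%), a ratio of 9.83 (exact adjusted p = 1.05e-17). Non-repeatable promoter summits lay in coding exons more often, in 17.95% (ratio 0.579, exact adjusted p = 2.07e-05). The 5′ untranslated regions held 191 repeatable summits (35.4%), against 29.96% of non-repeatable and 28.0% of IDR promoter summits (exact adjusted p = 0.0193 and 0.00481). Introns held 22.8% of repeatable and 31.1% of IDR promoter summits, and 24.7% against 32.8% lay outside genes (exact adjusted p = 0.00155 and 0.00181). Within coding exons, 3 of the 56 repeatable peaks held GTAAACA and 0 held TATAAA, and the GC content was 53.7%. In introns 12 of 123 (9.76%) held GTAAACA.

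TSSs on both strands within 500 bp were found at 97 repeatable summits (17.996%), against 16.8% of non-repeatable and 23.3% of IDR promoter summits. The difference from IDR promoter peaks passed narrowly (ratio 0.771, exact adjusted p = 0.0367) and did not at pooled ranks up to 6000 (ratio 0.887, exact adjusted p = 0.85). The X held 14.3% of repeatable, 15.6% of non-repeatable and 14.1% of IDR promoter summits, and neither difference passed (exact adjusted p = 0.57 and 0.94). Of the other arms, 2L held 111 repeatable peaks, 2R 105, 3L 124, 3R 122 and chromosome 4 none. GTAAACA lay in 6.67% to 9.09% of the repeatable peaks of the 5 arms that held any.

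The 20 strongest repeatable promoter peaks had pooled signals of 185 to 190.0, at ranks 2924 to 3065. None was in the leading 2919 of all 3 replicates, 5 were in 2 of them, 12 in 1 and 3 in none. A forkhead word of the 4 lay at 6 of them, and GTAAACA at 2, those of Hexo1 and lncRNA:CR44761. The strongest was the peak of IntS6 (FBgn0261383), a subunit of the Integrator complex, at chrX:5746864-5747267 in the 5′ untranslated region. Its pooled signal was 190.0, and its replicate signals were 36.3, 67.0 and 72.6, at ranks 12784, 2270 and 2431. Replicate 1 was thus far below the other two. The peak of EndoG (FBgn0033690), a mitochondrial endonuclease gene, lay 101 bp upstream of the TSS at chr2R:12178452-12178855. It had replicate signals of 99.2, 57.5 and 41.3, the highest in replicate 1.

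The peak of Rho1 (FBgn0014020), a small GTPase of the actin cytoskeleton, lay 20 bp upstream of the TSS with replicate signals of 58.5, 86.1 and 45.01. WASp (FBgn0024273), an activator of the Arp2/3 complex, had its peak 75 bp upstream, with 60.0, 39.3 and 84.0. Rho1 was highest in replicate 2 and WASp in replicate 3, by signal and by rank. The peak nearest to Naa80 lay 4 bp downstream of its TSS and 23 bp upstream of a TSS of MED6, a Mediator subunit gene on the other strand. Its replicate signals were 58.1, 37.7 and 84.8. The transcription factor genes shn, which acts in Dpp signalling, and ken, a BTB zinc-finger repressor, had peaks 91 and 70 bp downstream of the TSS. That of shn had signals of 42.3, 59.8 and 68.4, and that of ken 55.1, 93.8 and 38.8. The peak of Hexo1, a hexosaminidase gene, lay 31 bp upstream of the TSS with signals of 87.8, 24.9 and 54.7, and that of lncRNA:CR44761 215 bp upstream with 93.4, 54.6 and 27.7. Both peaks with GTAAACA were highest in replicate 1. The other genes nearest to the 20 strongest were Ppa, eEF1beta, lncRNA:CR34046, CG42365, Ptpmeg, CG11791, CG17574, CG4565, lolal, Aldh7A1 and CG11170.

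A repeatable promoter peak lay within 500 bp of a TSS of 652 genes of any kind, and of 544 of 13945 protein-coding genes (3.9%). IDR promoter peaks marked 1302 protein-coding genes (9.34%), and 60 genes had both. Of the 12643 protein-coding genes with no IDR promoter peak, 484 (3.83%) had a repeatable one. For 468 peaks the nearest TSS was protein-coding, for 56 that of a non-coding RNA, and for 15 of another kind. The TSS was within 100 bp for 221 peaks (41.0%).

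No gene had more than 2 of the peaks, and 19 protein-coding genes had 2. Since these tie, those named here are the first 10 by name: Alp12, Bacc, CAP, CG11537, CG13085, CG33144, CG42238, CG6833, Galphai and Lmpt. Alp12 and CG13085 shared the same 2 peaks. The gene dl, which was chosen after its values were seen, encodes Dorsal, a Rel-family factor of dorsoventral patterning. Its peaks lay 166 and 63 bp upstream of a TSS, with pooled signals of 155 and 170. Galphai, a heterotrimeric G protein subunit, had peaks 382 bp upstream and 224 bp downstream of a TSS, with signals of 143 and 158.

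Across 24 gene lists with 1098 genes, 33 genes had a repeatable promoter peak. No list had more than 3 such genes, and set against the 3.9% of all protein-coding genes none is read as standing apart. Of 86 cytosolic ribosomal protein genes 63 had an IDR promoter peak. RpL40, which encodes a ribosomal protein fused to ubiquitin, had a repeatable one. This peak lay 107 bp downstream of the TSS, held GTAAACA and had replicate signals of 68.9, 50.8 and 56.3. Among 73 mitochondrial ribosomal protein genes 3 had a peak, mRpL51, mRpS16 and mRpS23. The translation factor genes eEF1beta and eIF2beta had one of 51, and AspRS and MetRS, aminoacyl-tRNA synthetases, of 33.

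Of 31 Rab GTPase genes, which encode regulators of vesicle traffic, 3 had a peak. Those were Rab14, Rab5 and Rab40, with pooled signals of 178, 103 and 99.8. The Rab14 peak lay 17 bp upstream of the TSS, with replicate signals of 70.8, 40.9 and 70.1. Of 33 vacuolar ATPase genes, Vha68-2 and VhaAC39-2 had one, the second with GTAAACA. The proteasome genes Prosbeta1 and Rpn8 had one of 48, the respiratory chain genes COX7B and UQCR-C1 of 84, and the cell cycle genes fzr and E2f1 of 30. Of 16 forkhead genes CHES-1-like had a peak 385 bp downstream of the TSS and in an intron, with GTAAACA and replicate signals of 68.2, 25.7 and 47.4. Lists with 1 such gene were those of Mediator (MED6), DNA replication (Psf3, with GTAAACA), insulator proteins (pita), the Polycomb group (ph-p), signalling pathways (shn), the sarcomere (Tm1), the salivary gland (ps) and cytochrome P450 (Cyp6a16).

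Of 179 chemosensory receptor genes 2 had a peak, Ir60e and Ir67c, and of 110 cuticle protein genes 2, Lcp65Ad and Cpr73D. Nucleoporin, heat shock, spliceosome and neural differentiation genes had none, of 21, 19, 31 and 19.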

How the data were processed

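Peak lists on dm6 of 3 replicates, their pool and the IDR step were used as deposited. The peak strength is the score of the authors' signal column, on a scale not stated, and the deposited −log10 q-value served to count peaks with q under 0.05. Per the deposited file descriptions, the relaxed lists hold peaks and background and each has 30000 entries. No source used here gives the aligner, caller, settings, IDR threshold or depth.

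Summits within 50 bp were matched, overlaps needed 1 bp, and TSSs came from Ensembl release 115 without transposable elements. Every peak lay within the arms of the NCBI release 6 genome. Motifs (16) were searched on both strands in windows of 101 bp, and classes compared by two-sided Fisher's exact tests with Benjamini-Hochberg adjustment at 0.05 within each family. The forkhead word share and the word search were tested on random genome windows with GTAAACA planted in a known share. The steps for nearest distance and overlap were tested on simulated positions, and the side of the TSS was not. Software was SciPy 1.17.1, NumPy 2.4.6 and pandas 2.3.3 under Python 3.11.15, with figures from matplotlib 3.10.9.

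The 3 samples form 1 group, and values at the replicates' own summits are given as mean ± SD. Nothing in the labels says how far the replicates' embryo collections were separate. The peaks and the gene lists were chosen with earlier results of these data known. The rule for naming genes took the nearest gene of each of the 20 strongest peaks, the 10 genes holding most peaks, up to 4 per list by signal, and those of printed sequences, which leave out arm 2R. No single gene matched 10 listed names. Alternatives varied the summit tolerance, replicates, TSS limit, windows and flanks, and those on rank, side and subsets of peaks were chosen after seeing the data. One gene of the lists is not reported here.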

Additional observations from a re-analysis of the deposited data

How the results depend on the processing

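The result on GTAAACA against non-repeatable promoter peaks kept its direction and its side of the threshold in all 15 alternatives, with ratios of 1.47 to 4.12 and Fisher's exact adjusted p up to 0.0450. That on the upstream share against IDR promoter peaks did so in all 13, with ratios of 0.657 to 0.769 and adjusted p up to 0.00352. The ratios of 4.12 and 0.769 came from keeping only the 140 repeatable peaks in the leading 10000 of every replicate. That setting left the compared classes whole, so it does not set like against like. GTAAACA lay there in 12.9% of repeatable peaks, against an unchanged 3.12%. In the other settings its ratio was 1.47 to 2.85. TATAAA against IDR promoter peaks kept its direction in all 17 and passed in 15. Requiring a pooled q under 0.05 left no peak, so that alternative gives no value.

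The number of peaks was 194 with a summit tolerance of 25 bp, 1215 with 100 bp, 319 at pooled ranks up to 6000 and 1109 to 1375 with 1 replicate left out. Protein-coding genes with one numbered 203, 1216, 338 and 1096 to 1397 under the same settings, and listed genes 10, 77, 21 and 72 to 89. Listed genes numbered 21 with TSSs within 250 bp and 54 within 1000 bp.

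With the tolerance at 25 bp, 1 motif passed against non-repeatable promoter peaks and 0 against IDR promoter peaks, repeatable non-promoter peaks and flanks. With 100 bp, 7 passed against repeatable non-promoter peaks and 5 against flanks. With 1 replicate left out the counts were 5 to 7 against IDR promoter peaks, 2 to 6 against repeatable non-promoter peaks and 4 to 8 against flanks. At ranks up to 6000, 1 passed against non-repeatable and 1 against IDR promoter peaks. For summits downstream 1 passed against non-repeatable peaks, and for summits upstream 1 against IDR promoter peaks, as with TSSs within 250 bp, windows of 25 bp and the IDR promoter peaks below their median signal (1 each). Against repeatable non-promoter peaks 0 passed with TSSs within 1000 bp, 0 with windows of 25 bp and 3 with 100 bp, and against flanks 4 with windows of 100 bp. Peaks in the leading 10000 of every replicate gave 0 against IDR promoter peaks and 1 against flanks. The cause was not tested in any of these. Words of 7 bases past the threshold numbered 0 with 25 bp tolerance and at ranks up to 6000, 1 with 100 bp tolerance, TSSs within 250 bp, no IDR summit within 1000 bp and windows of 25 or 100 bp, 8 with TSSs within 1000 bp, and 0 to 3 with 1 replicate left out.

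GTAAACA against IDR promoter peaks, which never passed, turned to ratios of 0.869 with 100 bp tolerance, 0.897 with TSSs within 1000 bp, 0.954 with windows of 25 bp, 0.819 for summits downstream, 0.973 against IDR promoter peaks with a summit in all replicates, and 0.692 to 0.810 with 1 replicate left out. The 4 forkhead words against IDR promoter peaks turned to 1.04 for peaks in the leading 10000 of every replicate. The upstream share against non-repeatable peaks turned to 0.973 at ranks up to 6000. TSSs on both strands against non-repeatable peaks turned to 0.978 with 25 bp and 0.990 with 100 bp tolerance, and gave 0.975 to 1.20 with 1 replicate left out, passing without replicate 3. Against IDR promoter peaks that share no longer passed with 25 bp tolerance (0.707), TSSs within 1000 bp (0.900), no IDR summit within 1000 bp (0.793) or ranks up to 6000 (0.887), and turned to 1.04 for the leading 10000. The X share, which never passed, turned against non-repeatable peaks to 1.14 with 25 bp and 1.00 with 100 bp tolerance, and was 0.936 to 1.07 with 1 replicate left out (1.01 without replicate 1). Against IDR promoter peaks it turned to 0.996 with TSSs within 1000 bp, 0.974 with no IDR summit within 1000 bp, 0.909 at ranks up to 6000, 0.868 against IDR promoter peaks with a summit in all replicates and 0.858 for the leading 10000.

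No paired analysis of samples was possible because the samples form 1 group, with no second group to pair them with. Each summit window does have its own flank windows, and the Fisher's tests against flanks did not use that pairing. Read numbers are unknown, and 1 donor strain was used, so intervals measure windows and not fly lines. The DRE ratio has no value with 25 bp tolerance, where the other class had none.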
